A study of Mus musculus with 12 samples.

Results

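The interferon and leukocyte genes described here were Mx1, Slfn4, Lck and Itgb2, chosen by name, and all 4 were found among the 99 genes analysed of a table of gene levels across 12 mouse RNA-seq libraries. The series held 3 independent cultures each of induced mesenchymal stem cells (iMSCs), bone marrow mesenchymal stem cells (BMSCs), induced pluripotent stem cells (iPSCs) and skin fibroblasts (Fibs). The iMSCs were made from iPSCs through embryoid bodies induced with 10 ng/ml TGF-beta1 and 5 ng/ml bFGF and were kept in low-glucose DMEM with serum. The labels give iMSCs and iPSCs the genotype "Reprogramming" and give BMSCs and Fibs the genotype "WT". BMSCs came from the femoral marrow cavity and were grown in low-glucose DMEM with serum, with no age given. The iPSCs came from Fibs reprogrammed with Sendai vectors for OCT4, SOX2, KLF4 and c-MYC, on a mitomycin C-treated feeder layer in medium with LIF. Fibs came from the ear skin of female C57BL/6 mice aged 8 weeks and were grown in high-glucose DMEM with serum. Cell type, tissue of origin and vector history thus cannot be told apart, nor, except between iMSCs and BMSCs, can medium, and in RNA from whole cultures fewer cells that express a gene and less RNA per cell cannot be told apart either.

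Interferons bind receptors at the cell surface, and STAT factors then switch on antiviral genes such as Mx1, a dynamin-like GTPase that blocks the replication of some RNA viruses. C57BL/6 and most laboratory strains carry an Mx1 allele that lacks part of the coding sequence, so transcript level says nothing of a working protein. Slfn4 belongs to the Schlafen family, a mouse gene cluster on chromosome 11 that interferon induces in myeloid cells. Lck is a Src family kinase that starts signalling from the T cell receptor, and its gene is read from a distal and a proximal promoter. Itgb2 encodes CD18, the beta chain that the leukocyte integrins share, and pairs for example with CD11b on monocytes and granulocytes. Mesenchymal stem cells are defined in part by the absence of leukocyte proteins. The study stained iMSCs for CD45 and CD11b and reported by flow cytometry that they expressed neither.

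By the coordinates of the table, which match GRCm38, Mx1 lies on the minus strand of chromosome 16 from 97447035 to 97462907, Slfn4 on the plus strand of chromosome 11 from 83175186 to 83190216, Lck on the minus strand of chromosome 4 from 129548344 to 129558391, and Itgb2 on the plus strand of chromosome 10 from 77530252 to 77565686. The Mx1 record held 10 transcripts, with the type polymorphic pseudogene among them. The Lck record held 7 transcripts and began at the proximal promoter. The distal transcript, which in GENCODE M21 begins at 129573641, was not among its transcripts. Slfn4 stands between 2 close relatives, Slfn1 and Slfn3 (83116849 to 83122670 and 83191330 to 83215154, both on the plus strand), which were not analysed here. How reads shared by related genes were assigned is not given, so the Slfn4 values are uncertain to that extent. The Lck record shares its strand with the microRNA gene Mir8119 inside it.

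The RefSeq tables gave promoter windows for 2 of the 4 genes. They are shown because Slfn4 was the gene whose reads were either plentiful or nearly lacking from library to library, and because the Lck record begins at the proximal start and leaves out the distal one. Each line runs 5′ to 3′ on the gene's strand over 280 bases of GRCm38.p6, with the first 30 transcribed bases in capitals: chr11:83174936-83175215 (plus) for Slfn4, chr4:129558343-129558622 (minus) for the proximal and chr4:129573612-129573891 (minus) for the distal start of Lck.
Slfn4 promoter: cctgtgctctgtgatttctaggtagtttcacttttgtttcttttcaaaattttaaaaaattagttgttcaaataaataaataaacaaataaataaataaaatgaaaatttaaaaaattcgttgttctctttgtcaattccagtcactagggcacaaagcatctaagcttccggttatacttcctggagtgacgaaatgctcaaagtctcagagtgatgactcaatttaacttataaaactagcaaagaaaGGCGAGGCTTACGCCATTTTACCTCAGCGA
Lck proximal promoter: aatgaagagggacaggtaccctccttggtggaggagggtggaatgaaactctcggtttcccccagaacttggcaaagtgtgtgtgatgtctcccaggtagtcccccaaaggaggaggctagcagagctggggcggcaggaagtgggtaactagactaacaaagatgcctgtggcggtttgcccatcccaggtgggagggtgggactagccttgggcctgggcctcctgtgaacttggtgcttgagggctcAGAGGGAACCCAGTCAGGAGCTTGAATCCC
Lck distal promoter: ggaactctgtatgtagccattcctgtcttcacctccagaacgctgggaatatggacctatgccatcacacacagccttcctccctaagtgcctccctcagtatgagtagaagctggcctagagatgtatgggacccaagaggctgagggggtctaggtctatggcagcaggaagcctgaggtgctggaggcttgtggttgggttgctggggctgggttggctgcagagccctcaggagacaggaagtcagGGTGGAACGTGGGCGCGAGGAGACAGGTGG
The Slfn4 window was poor in G and C (33.7%), against 57.3% in the proximal and 58.3% in the distal Lck window. Both strands of the 300-base windows were searched for GAAANNGAA (core of the interferon-stimulated response element), TTCNNNGAA (gamma-activated sequence) and GAGGAA (a PU.1 motif). Other Ets family sites were not searched for. Neither interferon motif was found in any of these windows. The single match to these motifs was TTCCTC, which is GAGGAA on the opposite strand, 174 bases before the distal Lck start. Of all 32851 promoter windows of that length, 8.56% held the first motif, 8.3% the second and 28.3% the third, so the presence or lack of one describes the letters alone.

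Depth was even, at 66116449 to 77355177 counts per library as implied by the count and FPKM columns. FPKM is the level relative to the length of the transcript and the total of the library. Low counts fell in steps of 4, as 61 of the 77 counts from 1 to 13 were 4, 8 or 12, so a count is not 1 fragment and each 95% counting interval treats 4 counts as 1 event and covers counting error alone. Among the libraries, iMSC replicate 2 stood apart: 11 of 74 genes were more than 2-fold lower there than in the mean of the other iMSC libraries and 3 were more than 2-fold higher, against at most 4 genes in either direction in the other 11 libraries. Cdh1, the epithelial cadherin of pluripotent cells, was at 132 to 143 FPKM in iPSCs and at 0.672 FPKM or less in the other 9 libraries, as the labels require. Of 48 leukocyte and macrophage markers only Itgb2, Lck, Slfn4 and Tspan32 were analysed. The defining markers Ptprc (CD45) and Itgam (CD11b) were not, so whether the sequenced cultures held leukocytes was not tested here from RNA.

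Mx1 was present in 3 of the cell types and nearly lacking in iPSCs. It stood at 6.16, 0.230 and 4.66 FPKM in iMSC replicates 1, 2 and 3 (1544, 63 and 1279 counts), at 2.71, 2.82 and 2.72 FPKM in BMSCs (736, 752 and 754 counts), at 0.0551, 0 and 0 FPKM in iPSCs (16, 0 and 0 counts), and at 1.24, 1.27 and 1.58 FPKM in Fibs (323, 344 and 424 counts). BMSCs and Fibs were tight and did not overlap, while the iMSC cultures reached from below every Fib to above every BMSC library. The means were 3.68 ± 3.08 FPKM in iMSCs, 2.75 ± 0.0617 in BMSCs, 0.0184 ± 0.0318 in iPSCs and 1.36 ± 0.191 in Fibs (SD, n = 3 each). Mx1 was 26.8-fold higher in iMSC replicate 1 than in iMSC replicate 2 (95% counting interval 15.9 to 46.5) and 20.3-fold higher in replicate 3 than in replicate 2, whereas replicates 1 and 3 differed 1.32-fold. The 63 counts of replicate 2 gave an interval of 0.131 to 0.374 FPKM, below the intervals of the other 8 iMSC, BMSC and Fib libraries.

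The comparisons of Mx1 followed this pattern. The test was edgeR's quasi-likelihood test with Benjamini-Hochberg adjustment over 86 genes. In it, BMSCs exceeded Fibs by 1.01 ± 0.16 on the log2 scale (± SE here and below, adjusted p = 0.000572). This call was lost when all 12 libraries shared one estimate of spread (adjusted p = 0.433). Every cell type exceeded iPSCs: iMSCs by 7.54 ± 1.76 (adjusted p = 0.00794), BMSCs by 7.14 ± 0.75 (adjusted p = 3.72e-05), and iPSCs were lower than Fibs by a log2 difference of -6.12 ± 1.31 (adjusted p = 0.00394). Since iPSCs held 16 counts in all, these fitted values depend on the prior count, and the plain ratios to iPSCs were 192 (95% counting interval 74.8 to 708) for iMSCs, 146 (56.6 to 537) for BMSCs and 72.6 (28 to 268) for Fibs. All 16 counts were in iPSC replicate 1. Without it, the fitted log2 differences were 12.98 for iMSCs over iPSCs, 12.58 for BMSCs over iPSCs and -11.56 for iPSCs over Fibs, against a group then at 0 throughout, so these are no bounds. For the 2 iPSC libraries at 0 counts, the 95% counting interval reached 14.76 counts.

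iMSCs could not be ranked against BMSCs or Fibs for Mx1. The log2 difference was 0.42 ± 0.91 from BMSCs (95% interval -1.75 to 2.58, adjusted p = 0.824) and 1.42 ± 0.96 from Fibs (95% interval -0.90 to 3.75, adjusted p = 0.273). One library decided this: without iMSC replicate 2, Mx1 was higher in iMSCs than in BMSCs by 0.97 (adjusted p = 0.000229) and higher than in Fibs by 1.98 (adjusted p = 8.33e-05). As Mx1 was lowest in that library, leaving it out narrows the iMSC spread by itself. These p-values thus show dependence on 1 library and are no evidence of a difference. Without iMSC replicate 1 the log2 difference from BMSCs was -0.17 (adjusted p = 0.922).

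**Figure D1:**
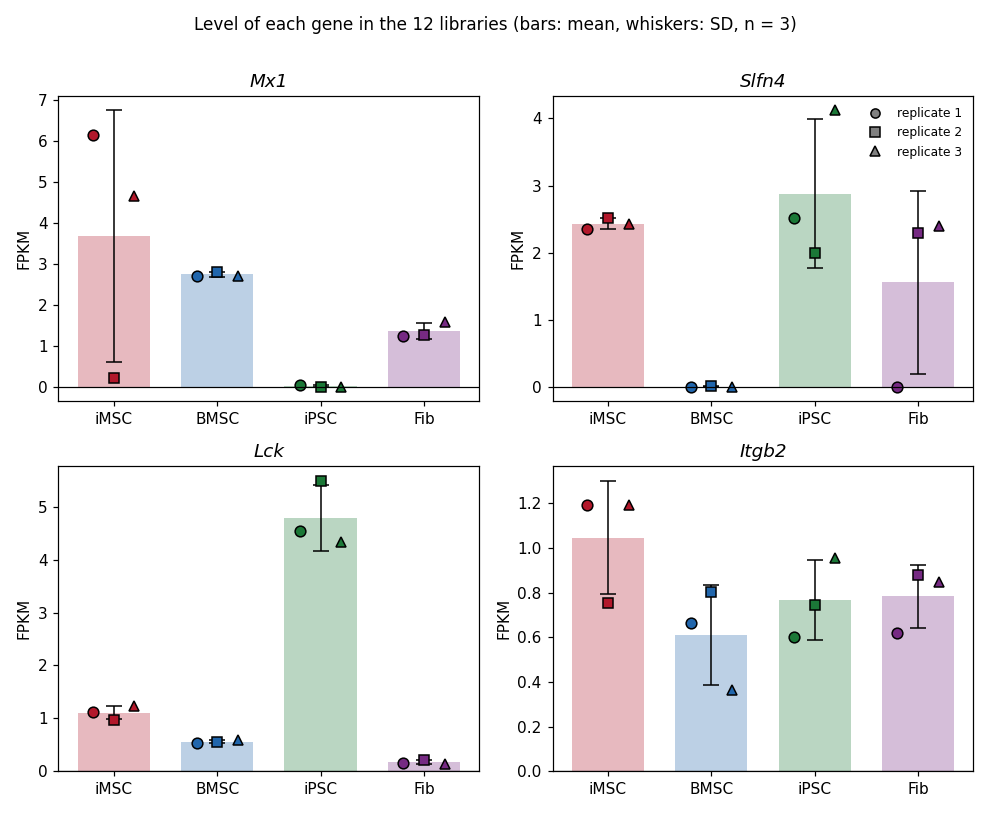
Level of Mx1, Slfn4, Lck and Itgb2 in FPKM (vertical axes, linear) in the 3 libraries each of iMSCs, BMSCs, iPSCs and Fibs; points are libraries, bars the means and whiskers the SD. Mx1 in iMSC replicate 2 lies at 0.230 FPKM against 6.16 and 4.66 in the other iMSCs, Slfn4 is at 0 in Fib replicate 1 against 2.30 and 2.39 in the other Fibs, the Lck groups are separate, and the Itgb2 groups overlap.

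Slfn4 fell into a present and a nearly lacking state, and the split ran through one cell type. Its levels were 2.35, 2.52 and 2.43 FPKM in iMSC replicates 1, 2 and 3 (618, 706 and 698 counts), 0, 0.0273 and 0.0127 FPKM in BMSCs (0, 8 and 4 counts), 2.53, 2.00 and 4.12 FPKM in iPSCs (715, 589 and 1266 counts), and 0, 2.30 and 2.39 FPKM in Fibs (0, 648 and 667 counts). No library lay between 0.0273 and 2.00 FPKM, a gap of 73.2-fold. The 8 libraries above the gap spanned 2.06-fold, or 1.26-fold with iPSC replicate 3 left aside. The 4 below it were the 3 BMSC libraries and Fib replicate 1. That Fib library had 0 counts where the mean of the other Fibs gave 636, at least 52-fold lower than the lower of them by the limit of 12 counts. Slfn4 was the gene that departed most from the other Fibs in this library (-4.61 in log2 of FPKM + 0.1) and the single one of 75 that was more than 2-fold lower, with a median over the 75 genes of 0.02 on that scale.

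Slfn4 was higher in iMSCs than in BMSCs by 7.38 ± 0.75 on the log2 scale (adjusted p = 0.00268) and lower in BMSCs than in iPSCs, with a log2 difference of -7.63 ± 0.60 (adjusted p = 7.23e-06). The libraries did not overlap in either comparison, but the share of all genes without overlap was not computed. Slfn4 was also lower in BMSCs than in Fibs, with a log2 difference of -6.75 ± 1.78 (adjusted p = 0.00918), but there Fib replicate 1 overlapped with the BMSCs. With 12 counts in the 3 BMSC libraries together, the plain ratios to BMSCs were 173 (95% counting interval 58.8 to 840) for iMSCs, 206 (70.2 to 1000) for iPSCs and 112 (38.1 to 547) for Fibs, and again the fitted sizes depend on the prior count. The iMSC call was lost without BMSC replicate 3 (adjusted p = 0.0617), and the Fib call without BMSC replicate 2 (adjusted p = 0.0607) and in limma on log2(FPKM + 1) (adjusted p = 0.083) and on log2(FPKM + 0.1) (adjusted p = 0.103).

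Among iMSCs, iPSCs and Fibs, no difference in Slfn4 passed. The log2 difference was -0.24 ± 0.29 between iMSCs and iPSCs (95% interval -0.94 to 0.45, adjusted p = 0.505), 0.64 ± 1.44 between iMSCs and Fibs (95% interval -2.83 to 4.10, adjusted p = 0.741) and 0.88 ± 1.31 between iPSCs and Fibs (95% interval -2.26 to 4.03, adjusted p = 0.545). The first of these turned sign with TMM scaling (0.25, adjusted p = 0.469), and the other 2 comparisons hold the Fib library at 0. Without Fib replicate 1, the log2 difference between iMSCs and Fibs was 0.05 (adjusted p = 0.853).

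Lck was the member with the clearest order of cell types. It was at 1.12, 0.974 and 1.23 FPKM in iMSC replicates 1, 2 and 3 (220, 203 and 261 counts), at 0.541, 0.558 and 0.589 FPKM in BMSCs (115, 115 and 129 counts), at 4.54, 5.49 and 4.33 FPKM in iPSCs (950, 1198 and 985 counts), and at 0.149, 0.216 and 0.146 FPKM in Fibs (31, 46 and 31 counts). No 2 cell types overlapped, so the order ran from iPSCs through iMSCs and BMSCs down to Fibs in all 12 libraries. Such separation was not particular to Lck. Trim25, Itga5 and Cav2 were also without overlap in every comparison. The share over all genes was not computed, so a lack of overlap is only a description, for Lck and for the other genes named. The means were 1.11 ± 0.127 FPKM in iMSCs, 0.562 ± 0.0243 in BMSCs, 4.79 ± 0.616 in iPSCs and 0.170 ± 0.0391 in Fibs (SD, n = 3 each). iMSC replicate 2, which stood apart for Mx1, was within 1.26-fold of the highest iMSC culture for Lck.

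Lck passed the test in 6 of 6 comparisons. Relative to iPSCs, the log2 difference was -2.10 ± 0.21 in iMSCs (adjusted p = 0.000182) and -3.07 ± 0.17 in BMSCs (adjusted p = 7.41e-07). Relative to Fibs, it was 2.66 ± 0.37 in iMSCs (adjusted p = 0.00282), 1.70 ± 0.40 in BMSCs (adjusted p = 0.0057) and 4.77 ± 0.27 in iPSCs (adjusted p = 3.48e-06), the last a ratio of mean FPKM of 28.1. These 5 calls held under all alternatives that were run. The step between the neighbours iMSCs and BMSCs, 0.97 ± 0.25, had the highest adjusted p of the 6 (0.0477). It was lost when any library other than iMSC replicate 2 was left out (adjusted p = 0.107 to 0.214) and held without that one (adjusted p = 0.00974). The Fib values rest on 31 to 46 counts, with counting intervals of 0.0622 to 0.381 FPKM across the 3 libraries.

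**Figure D2:**
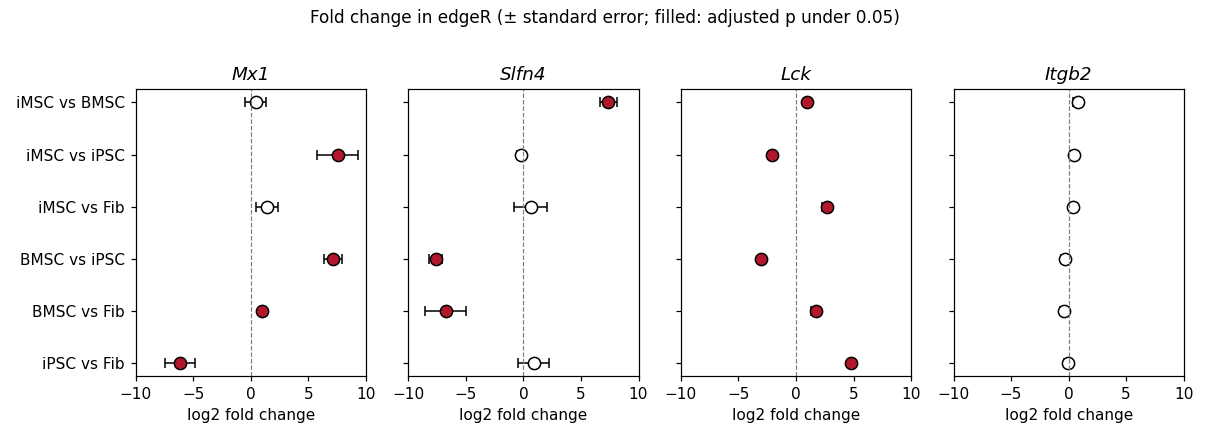
Log2 fold change of the 4 genes (horizontal axes) in the 6 comparisons of cell types (rows), first cell type over second. Whiskers are standard errors computed from the fold change and F statistic of edgeR. Filled points passed an adjusted p of 0.05. Lck is filled in 6 of 6 rows and Itgb2 in 0 of 6, and Mx1 and Slfn4 have wide error bars where a library at or near 0 is in the comparison.

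Itgb2 was detected in all 12 libraries, and its levels overlapped among all cell types. It was at 1.19, 0.753 and 1.19 FPKM in iMSC replicates 1, 2 and 3 (241, 163 and 264 counts), at 0.663, 0.803 and 0.363 FPKM in BMSCs (145, 172 and 81 counts), at 0.601, 0.745 and 0.955 FPKM in iPSCs (131, 169 and 226 counts), and at 0.620, 0.880 and 0.849 FPKM in Fibs (130, 191 and 182 counts). The highest value came from iMSCs and the lowest from a BMSC library. The means were 1.05 ± 0.254 FPKM in iMSCs, 0.610 ± 0.225 in BMSCs, 0.767 ± 0.178 in iPSCs and 0.783 ± 0.142 in Fibs (SD, n = 3 each).

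Itgb2 passed in 0 of 6 comparisons, with 0 at an unadjusted p under 0.05 in edgeR. The widest log2 difference was 0.78 ± 0.39 between iMSCs and BMSCs (95% interval -0.14 to 1.70, adjusted p = 0.245), followed by 0.45 ± 0.34 between iMSCs and iPSCs (-0.37 to 1.26), 0.42 ± 0.33 between iMSCs and Fibs (-0.38 to 1.22), -0.36 ± 0.36 between BMSCs and Fibs (-1.18 to 0.46), -0.33 ± 0.36 between BMSCs and iPSCs (-1.16 to 0.50) and -0.03 ± 0.36 between iPSCs and Fibs (-0.89 to 0.83). The intervals thus reach differences of up to 1.70 on the log2 scale, and these data do not show that the cell types were alike. Without iMSC replicate 2, Itgb2 was higher in iMSCs than in BMSCs by 0.97 (adjusted p = 0.0372). Among iMSCs, Itgb2 was lowest in that library, so leaving it out raises the iMSC mean and narrows the spread by itself. That p-value thus shows dependence on 1 library and is no evidence of a difference. Between iMSCs and iPSCs, the Itgb2 difference was 0.90 with TMM scaling (adjusted p = 0.0286) and 0.89 with median-ratio scaling (adjusted p = 0.0468). The absence of a call there thus depends on the scaling. Both scalings were estimated from the 86 tested genes alone, of which 68.6% were called in that comparison. They moved the median log2 difference of all tested genes by 0.456 and 0.462.

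The count of members called was read against the share of all 86 genes tested that were called. It was 2 of 4 between iMSCs and BMSCs, where 15.1% of all genes were called, 2 of 4 between iMSCs and iPSCs, where 68.6% were, and 1 of 4 between iMSCs and Fibs, where 48.8% were. It was 3 of 4 between BMSCs and iPSCs, where 77.9% of all genes were called, 3 of 4 between BMSCs and Fibs, where 65.1% were, and 2 of 4 between iPSCs and Fibs, where 84.9% were. The median log2 difference of the 4 members was 0.87 between iMSCs and BMSCs, against 0.02 over all genes tested, and 1.03 between iMSCs and Fibs, against 0.04. It was 0.10 between iMSCs and iPSCs, against -0.65, and -1.70 between BMSCs and iPSCs, against -0.38. Between BMSCs and Fibs it was 0.32, against -0.06, and between iPSCs and Fibs 0.42, against 0.61. With 4 members chosen with earlier results known, nothing is read from these medians. The comparisons share libraries, so their counts are not independent.

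Among the members, Mx1 stood out for its spread between the iMSC cultures. Over the 66 genes with at least 40 counts in each iMSC library, the highest library exceeded the lowest by a median of 1.53-fold, and Mx1, at 26.8-fold, had the widest spread. Genes under that count were left out of this ranking, among them Tbx2. It spread 26.25-fold on 93, 4 and 68 counts in iMSC replicates 1, 2 and 3, and was also lowest in replicate 2. Itgb2 (1.58-fold) was close to that median, and Lck (1.26-fold) and Slfn4 (1.07-fold) were below it. In BMSCs, where the median over 67 genes was 1.13-fold, Itgb2 ranked 3 of 67 at 2.21-fold, while Lck (1.09-fold) and Mx1 (1.04-fold) lay below the median. In iPSCs, with a median of 1.13-fold over 80 genes, Slfn4 ranked 3 of 80 at 2.06-fold, Itgb2 stood at 1.59-fold and Lck at 1.27-fold. In Fibs, with a median of 1.15-fold over 69 genes, Itgb2 was at 1.42-fold and Mx1 at 1.28-fold, and Slfn4 had no ratio because 1 library was at 0.

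**Figure D3:**
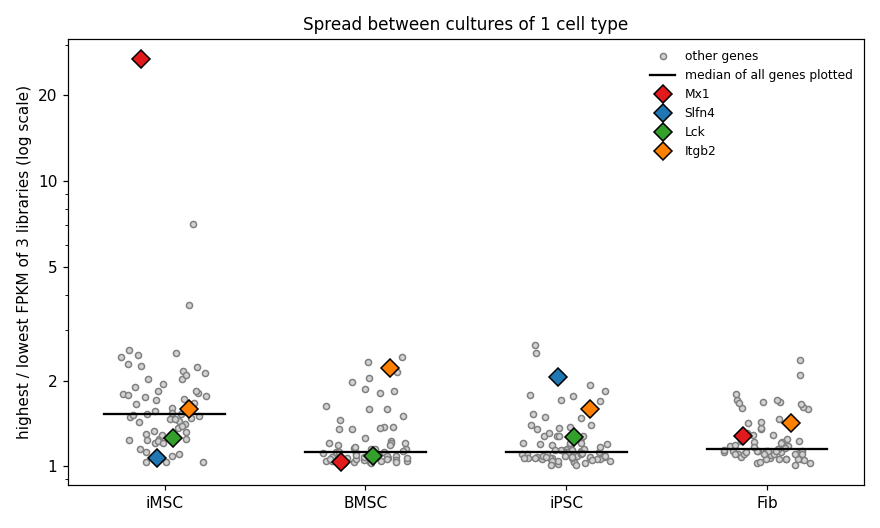
Spread between the 3 cultures of each cell type, as the highest over the lowest FPKM (vertical axis, log scale), for the genes with at least 40 counts in each library of that cell type; grey points are other genes, the line is the median and diamonds are Mx1, Slfn4, Lck and Itgb2 where they reached that count. Mx1 in iMSCs lies at 26.8-fold, above a median of 1.53-fold.

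The interferon list held 76 genes, of which Mx1, Slfn4 and Trim25 were analysed. Trim25, an interferon-induced ubiquitin ligase that activates the RNA sensor RIG-I, was at 10.99, 7.22 and 10.6 FPKM in iMSC replicates 1, 2 and 3, at 18.3, 17.6 and 16.3 FPKM in BMSCs, at 31.1, 33.2 and 31.7 FPKM in iPSCs and at 21.3, 20.1 and 20.4 FPKM in Fibs. It was lowest in iMSCs and highest in iPSCs, the cell type where Mx1 was nearly lacking, and no cell types overlapped. Trim25 passed in 6 of 6 comparisons. In edgeR its log2 difference was -0.86 between iMSCs and BMSCs (adjusted p = 0.0256), -1.73 between iMSCs and iPSCs (adjusted p = 0.000258) and -1.10 between iMSCs and Fibs (adjusted p = 0.00404). Of the 3 interferon genes, each thus had its own order of cell types: Mx1 was lowest in iPSCs, Slfn4 in BMSCs and Trim25 in iMSCs.

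Of 19 leukocyte integrin and adhesion genes only Itgb2 and its relative Itgb2l were analysed. Itgb2l was at 0.0359 FPKM or less, held 12 counts or fewer everywhere, was at 0 in the 3 BMSC libraries and was not tested. Tspan32, a tetraspanin of blood cells, reached 0.0123 to 0.0892 FPKM in iMSCs, 0.0084 to 0.0360 in BMSCs, 0.131 to 0.178 in iPSCs and 0.00866 to 0.0240 in Fibs. It was lower in BMSCs than in iPSCs (log2 difference -2.62, adjusted p = 0.00314) and higher in iPSCs than in Fibs (3.43, adjusted p = 0.00126), and no other comparison passed. Its gene overlaps the antisense gene Tspan32os, whose reads cannot be told apart from its own without the strand setting. The 4 analysed leukocyte markers, Lck, Itgb2, Slfn4 and Tspan32, summed to 4.26 to 4.94 FPKM in iMSCs, 1 to 1.41 in BMSCs, 7.85 to 9.54 in iPSCs and 0.779 to 3.42 in Fibs. As these are mostly the members themselves, the sum is no independent sign of leukocytes.

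The genes whose levels were most like each member over the 12 libraries were found by Spearman's rank correlation of FPKM with the other 85 tested genes, as a description, since the points share cell types and libraries. For Mx1 the nearest was Egfl6, a secreted protein of the EGF repeat family (rho = 0.963), then Narf (0.855) and Rem1 (0.704). Egfl6 was at 99.5, 14.0 and 84.7 FPKM in iMSC replicates 1, 2 and 3, at 75.6 to 82.1 FPKM in BMSCs, at 0.369 to 0.924 FPKM in iPSCs and at 43.5 to 50.3 FPKM in Fibs. It thus shared with Mx1 both the low iPSC libraries and the low iMSC replicate 2, whereas Rem1 was highest in that replicate (3.06, 4.97 and 2.88 FPKM in iMSC replicates 1, 2 and 3).

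For Lck the nearest genes were Tbrg4, a regulator of mitochondrial RNA (rho = 0.923), Bcl6b, a transcriptional repressor (0.902), and Tspan32 (0.902). Tbrg4 averaged 9.08 ± 1.81 FPKM in iMSCs, 5.23 ± 0.293 in BMSCs, 16.4 ± 0.98 in iPSCs and 3.97 ± 0.315 in Fibs (SD, n = 3 each), the same order of cell types as Lck. For Slfn4 the nearest were Axin2, a target and brake of Wnt signalling (0.739), the lipoxygenase Alox12 (0.739) and Btbd17 (0.648), and none of them shared the low Fib replicate 1 alone: Axin2 was at 0.876, 0.994 and 0.757 FPKM in the 3 Fibs. For Itgb2 the correlations were weaker, with Tfe3, a lysosomal transcription factor (0.476), and Slfn4 (0.452) among the nearest genes.

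**Figure D4:**
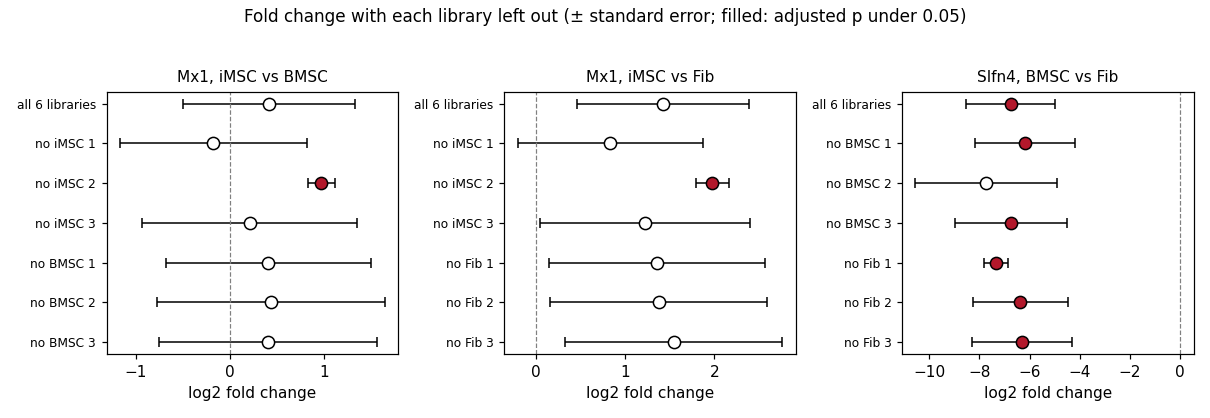
Log2 fold change with its standard error (horizontal axes) for Mx1 in iMSCs over BMSCs, Mx1 in iMSCs over Fibs and Slfn4 in BMSCs over Fibs, with all 6 libraries (top row) and with each library left out in turn (rows below); filled points passed an adjusted p of 0.05. Both Mx1 panels are filled in the row without iMSC replicate 2 alone, at 0.97 and 1.98, and the Slfn4 panel is open in the row without BMSC replicate 2 alone.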

How the data were processed

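Poly(A) RNA of 12 cultures was sequenced as read pairs on a NovaSeq. The tools in the submitters' processing notes are cutadapt 1.9, StringTie 1.3.4d and HISAT2 2.0.4. In the methods, FPKM was computed with StringTie and Ballgown. The deposited FPKM values are scaled by the authors for transcript length and library total. The deposited counts are whole numbers that were not normalized by the authors; how they were made and their strand setting are not given in the sources used here. The notes name mm9, whereas all 99 genes had the chromosome, and 85 of them the start and end, of GENCODE M21 on GRCm38. Coordinates are those of the table.

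The 99 genes analysed hold 0.365 to 0.485% of the counts, so library totals were computed from count, FPKM and transcript length of 6 genes with at least 500 counts (spread at most 0.0924%). edgeR 4.0.16 in R 4.3.3 (glmQLFit, glmQLFTest) was fitted to the 6 libraries of each comparison, using the 86 genes with at least 40 counts in at least 3 libraries, with Benjamini-Hochberg adjustment over the 86. The other 13 were not tested. Calls were made at an adjusted p under 0.05. The p-values refer to independent cultures. edgeR and DESeq2 took the counts as deposited, not divided by 4, so their p-values may rest on more events than there were fragments. Alternatives were DESeq2 1.42.0, limma 3.58.1 on log2(FPKM + 1) and log2(FPKM + 0.1), TMM and median-ratio scaling, no filter, an FPKM of at least 1, a fold threshold, a replicate block, a joint fit of all 12 libraries, and each library left out. TMM and median-ratio scaling took totals and factors from the 86 tested genes alone, not from the whole transcriptome. The edgeR code was run on counts simulated with a single fixed spread, without steps of 4, an outlying library or a group near 0. That run therefore cannot show how the test behaves for Mx1 and Slfn4. The genes named are the 4 members, the analysed genes of 6 lists (interferon response, leukocyte integrins, T cell signalling, leukocyte, mesenchymal and pluripotency markers), and for each member the 3 most correlated genes, of which 1 is not reported here. Of the mesenchymal markers Itga5, Cav2, Tbx4 and Tbx2 were analysed, summing to 93.9 to 186 FPKM in iMSCs, 76.0 to 78.1 in BMSCs, 59.5 to 64.0 in iPSCs and 51.2 to 54.0 in Fibs. Most of each sum was Itga5, with means of 113.4, 62.0, 57.5 and 37.6 FPKM in that order. Cav2 and Tbx2 were instead highest in Fibs (means 13.8 and 0.398 FPKM), and Tbx4 in BMSCs (7.27 FPKM). The sum therefore does not rank the cell types as mesenchymal. The members and lists were chosen with earlier results of these data known.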

Additional observations from a re-analysis of the deposited data

How the results depend on the processing

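Of the 24 combinations of a member and a comparison, 13 kept their direction and call under every alternative that could be run, among them 9 of the 13 that passed the test. The genes called between iMSCs and BMSCs numbered 13, against 5 with a log2 fold threshold of 1, 20 in DESeq2, 21 with all 12 libraries in 1 fit, and 0 to 44 with 1 library left out (44 without iMSC replicate 2, 0 without BMSC replicate 3). Members called there numbered 2, against 1 with the fold threshold, TMM scaling or no filter, and 0 to 4 with 1 library left out. With 1 library left out, 21 to 52 genes (42 with all) and 1 to 2 members were called between iMSCs and Fibs. The fold threshold left 44 of 67 genes between BMSCs and iPSCs and 21 of 56 between BMSCs and Fibs.

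Replicate numbers gave no uniform pairing of the samples. In every comparison at least 1 of the 3 correlations of deviations between same-numbered libraries was negative (the lowest was -0.379 to -0.0325). Others were positive, such as 0.354 and 0.235 between iMSCs and iPSCs and 0.198 and 0.429 between iPSCs and Fibs. With 3 libraries per cell type, these correlations cannot settle whether samples were paired. With a replicate block, 1 gene and 1 member (Slfn4) were called between iMSCs and BMSCs, and the Mx1 difference there was -0.27. In the other 5 comparisons the block moved the count of genes called by less than 1.5 times.

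Signs turned only where no call was made. Mx1 between iMSCs and BMSCs was -0.027 and -0.41 in limma with a pseudocount of 1 and 0.1, and -0.17 to 0.97 with 1 library left out. Slfn4 between iMSCs and iPSCs was 0.25 with TMM and 0.21 with median-ratio scaling, and -0.45 to 0.11 with 1 library left out. Itgb2 between BMSCs and iPSCs was 0.040 with TMM, and between iPSCs and Fibs -0.22 to 0.12 with 1 library left out. TMM moved the median of all genes by 0.46 for iMSCs over iPSCs, where 30 of 60 calls were then higher in iMSCs (19 of 59 before), by 0.37 for BMSCs over iPSCs (34 of 70 calls, 22 of 67 before), by 0.22 for iMSCs over Fibs (20 of 42, 18 of 42 before) and by -0.43 for iPSCs over Fibs (38 of 71, 46 of 73 before). TMM also gave 3 of 10 higher calls between iMSCs and BMSCs, against 7 of 13, and median-ratio scaling 10 of 16. Both scalings rest on the tested genes alone, and the cause of these shifts was not tested. With an FPKM filter of 1, Itgb2 was not tested.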
